A study of Mus musculus with 10 samples.

Results

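The genes examined here were Fgf21 and the components through which its product signals, 7 genes of the 24421 in the count table. They were chosen by name as the hormone (Fgf21), its co-receptor beta-Klotho (Klb), the 4 FGF receptor genes (Fgfr1, Fgfr2, Fgfr3 and Fgfr4) and Fgf1, the other FGF ligand of the liver. RNA-seq was performed on hepatic mRNA of 10 male wild-type C57BL/6 mice, 21 weeks old per the labels and fed ad libitum; the study's text gives the J substrain and a slightly younger age. The Chow group (n = 5) received standard chow, and the TM5614 group (n = 5) received chow containing TM5614, at 20 mg/kg/day over 10 days. TM5614 is a small-molecule inhibitor that is active by mouth, and the study's question concerned hepatic lipid metabolism. Both groups had the same genotype, and each library came from 1 mouse.

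FGF21 is a hormone secreted largely by hepatocytes, and its transcription is known to be raised by fasting through the nuclear receptor PPAR-alpha and by amino acid shortage or organelle stress through ATF4. Unlike most fibroblast growth factors it binds heparan sulphate weakly and therefore acts as a circulating hormone, and it signals only where a cell carries beta-Klotho together with an FGF receptor, chiefly FGFR1. The liver carries beta-Klotho with FGFR4, a pair best known as the receptor of FGF15, the ileal hormone that represses bile acid synthesis. Activated receptors recruit adaptors such as FRS2 and signal through RAS and ERK, and ERK in turn induces feedback inhibitors of the SPRY, SPRED and DUSP families.

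The stretch upstream of Fgf21 is shown first because it holds recognisable elements against which the values below can be read. Fgf21 (ENSMUSG00000030827.5) is a protein-coding gene on the minus strand of chromosome 7, from 45613886 to 45615490 in GRCm38, the assembly that mm10 names. The RefSeq promoter table (GRCm38.p6) gave the 250 bases before its start, chr7:45615491-45615740, read here 5′ to 3′ on the minus strand. Capitals mark, in order, a C/EBP-ATF response element, an E-box and a TATA box.
Fgf21 promoter: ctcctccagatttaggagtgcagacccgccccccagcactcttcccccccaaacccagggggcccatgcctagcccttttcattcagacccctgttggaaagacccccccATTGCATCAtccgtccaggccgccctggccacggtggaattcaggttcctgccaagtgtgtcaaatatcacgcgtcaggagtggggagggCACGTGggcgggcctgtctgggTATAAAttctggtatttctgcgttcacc

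The C/EBP-ATF response element (ATTGCATCA), the kind of site that ATF4 occupies with a C/EBP partner, lay 140 to 132 bases before the start. It was found in 0.167% of the 32851 mouse promoters searched on both strands. That makes it the rarest of the 3, but it is also the longest, and longer strings match fewer windows by length alone. An E-box (CACGTG), the core of the sites bound by ChREBP, USF and the clock factors, lay 50 to 45 bases before the start and was present in 6.02% of promoters. A TATA box (TATAAA) lay 28 to 23 bases before the start and was present in 12.4% of promoters. A nuclear receptor half-site (AGGTCA, 14.0% of promoters), the DR1 element that PPAR-alpha binds with RXR (a pair of such half-sites in direct repeat, 0.0335%) and the D-box of PAR-bZIP factors (TTATGTAA, 0.819%) had no exact match in this window. Among the other members Klb, Fgfr2, Fgfr3 and Fgfr4 had entries in the promoter table, and none of the 6 motifs was found in them. These matches describe letters in the window and carry no measurement of binding.

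Total counts per library ranged from 6398335 to 10874955, and 11092 genes were tested. Libraries are compared by CPM, counts scaled to library size and by the TMM method. All 10 hepatocyte markers were detected, with summed levels of 123943 to 143946 CPM in Chow and 115568 to 133550 CPM in TM5614. Chow replicate 2 and TM5614 replicate 2 stood apart. The summed exocrine pancreas markers reached 16.5 CPM in Chow replicate 2 against 7.40 to 9.82 CPM in the other Chow libraries and 6.40 to 8.18 CPM in TM5614, with 7 of the 15 markers at 0 throughout. Nearly all of this sum was Cela1, at 6.91 to 15.0 CPM in Chow, while the other markers were at most 1.35 CPM and Prss1 and Cpa1 were at 0. The 12 summed skeletal muscle markers ran from 0.736 to 1.25 CPM in Chow. In TM5614 replicates 1 to 5 they were at 1.29, 4383, 78.8, 6.40 and 2.98 CPM, each above the highest Chow library. Leaving out TM5614 replicate 2 does not remove this order. The main counts were also computed without Chow replicate 2 and TM5614 replicate 2, the libraries that stood apart.

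Fgf21 was the member that changed. Its level was 1.21, 1.54, 1.77, 0.475 and 1.38 CPM in Chow replicates 1 to 5, and 9.62, 9.86, 11.2, 10.2 and 13.9 CPM in TM5614 replicates 1 to 5. The lowest treated library was thus well above the highest control library and the groups did not overlap. The groups averaged 1.28 ± 0.494 CPM for Chow and 10.9 ± 1.74 CPM for TM5614 (SD, n = 5 each). The rise was 8.24-fold, with a 95% interval of 5.72 to 11.9, or 3.04 on the log2 scale (SE 0.24, edgeR adjusted p = 1.36e-04 over all genes tested). Over all genes, 1.73% rose and 2.77% fell at this threshold, and the median log2 fold change was 0.01. Fgf21 had the second largest log2 fold change among the 192 genes that rose, after Pdk4 (3.56), a kinase that limits glucose oxidation. Without TM5614 replicate 2, the library with the muscle transcripts, the order of these genes turned, to 3.07 for Fgf21 and 2.51 for Pdk4.

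The Chow level of Fgf21 rested on few reads. The counts were 10, 16, 17, 3 and 15 in Chow replicates 1 to 5, against 67, 76, 98, 89 and 135 in TM5614. Added up, 61 reads against 465 gave a ratio of 8.26 after scaling, with a counting interval of 6.31 to 10.97 that covers counting error only. Dispersion within a group was close to that of counting for the Chow libraries, with a chi-square per degree of freedom of 1.32, and 2.45 for TM5614. Leaving out any 1 library kept the log2 fold change between 2.87 and 3.18, and it was 3.13 (edgeR adjusted p = 4.41e-05) without both second replicates. The Fgf21 level of TM5614 replicate 2 was 9.86 CPM and lay inside the range of the other treated libraries. In bulk liver, more transcript per cell and more cells with the transcript cannot be told apart.

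**Figure D1:**
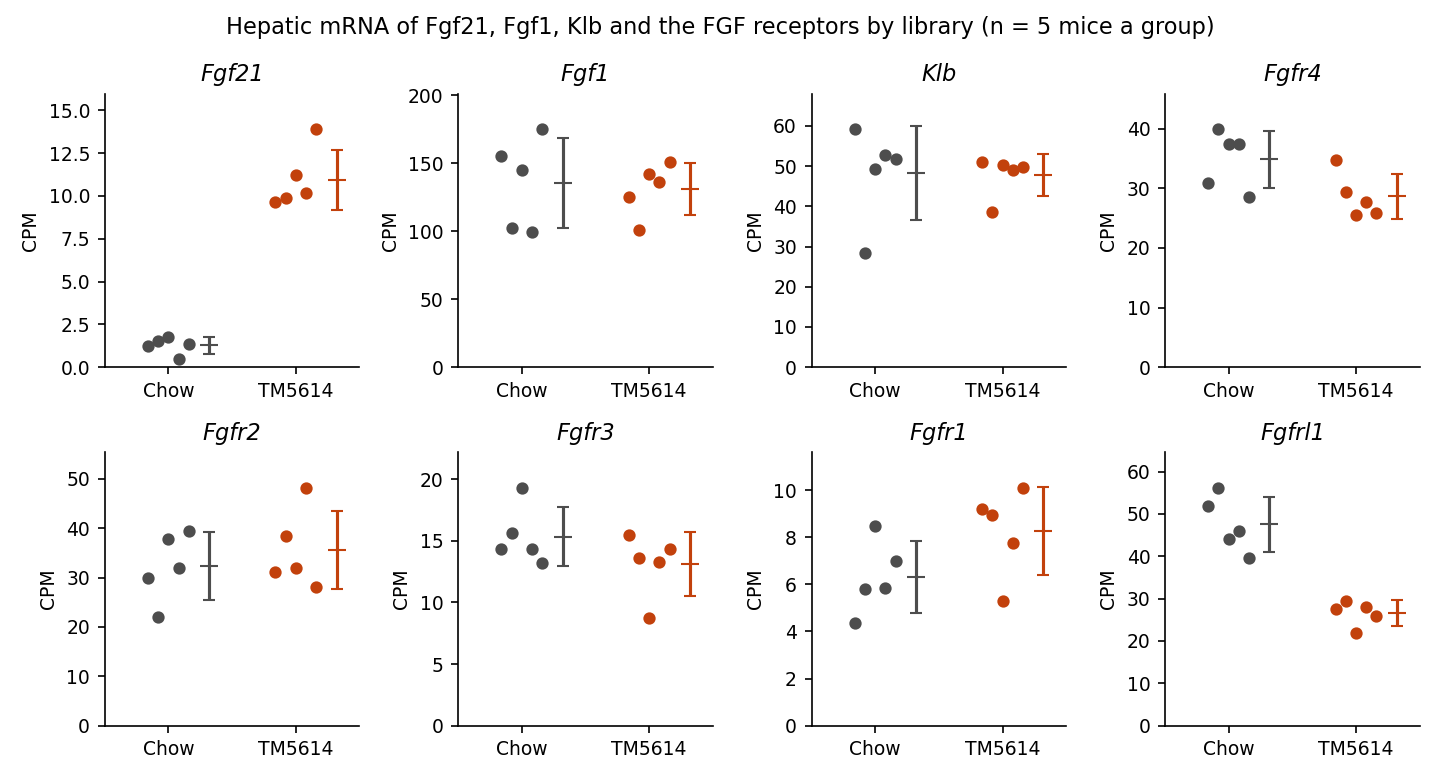
CPM of each gene in each library (points; replicates 1 to 5 from left to right within a group) with the group mean and SD beside them, on axes that start at 0. Fgf21 rises from 0.475 to 1.77 CPM in Chow to 9.62 to 13.9 CPM in TM5614, Fgfrl1 separates in the opposite direction, and the groups overlap for the other 6 genes.

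In rank within a library, by FPKM (counts per length, as deposited), Fgf21 moved from positions 8537 to 10851 in the Chow livers, with a median of 9215, to positions 3080 to 4033 in the TM5614 livers, with a median of 3940. A transcript near the lower limit of what was tested in untreated liver thus stood among the moderately expressed genes after treatment. Against Fgf1, the only other ligand gene that passed the filter on low counts, the FPKM of Fgf21 was 0.0395 ± 0.0170 times as high in Chow and 0.347 ± 0.0421 times as high in TM5614 (SD, n = 5 each). Its share of all FGF ligand FPKM was 1.93 to 5.82% in the Chow libraries and 23.6 to 28.0% in the TM5614 libraries.

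Fgf1 encodes a paracrine growth factor that binds every FGF receptor with heparan sulphate as its cofactor, and its gene lies on chromosome 18. It was measured at 155, 102, 145, 99.7 and 175 CPM in Chow replicates 1 to 5 and at 125, 101, 142, 136 and 151 CPM in TM5614 replicates 1 to 5. The groups overlapped across almost their whole range. The groups differed by -0.05 on the log2 scale (SE 0.17, edgeR adjusted p = 0.900), and the 95% interval of the fold ran from 0.744 to 1.26. The sign of this estimate differed between some of the settings tried.

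The other 20 FGF ligand genes were close to absent. For 9 of them no read was counted in any library, and 16 never exceeded 3 counts. Fgf15, which the ileum secretes, was among the genes at 0. The highest count of any of them was 10, for Fgf13 in TM5614 replicate 2. All 20 together had between 2 and 25 counts per library, and none passed the filter on low counts.

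Klb encodes beta-Klotho, the single-pass membrane protein that holds FGF21 or FGF15 on its receptor (chromosome 5, 65348314 to 65384007, plus strand). Its level was 59.2, 28.3, 49.4, 52.8 and 51.9 CPM in Chow replicates 1 to 5 and 51.0, 38.5, 50.3, 49.1 and 49.7 CPM in TM5614 replicates 1 to 5. The lowest value of each group was its second replicate, and without those the levels of all libraries lay between 49.1 and 59.2 CPM. The difference was -0.02 on the log2 scale (SE 0.18, edgeR adjusted p = 0.968), with a 95% interval of the fold from 0.759 to 1.29. Without both second replicates it was -0.09 (edgeR adjusted p = 0.492). The related co-receptors Kl, which serves FGF23, and Lctl had no reads in any library.

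None of the 4 receptor genes passed the threshold. Gene counts do not tell the splice forms of a receptor apart, so the c-type forms that partner beta-Klotho were not resolved. Fgfr4 (chromosome 13, 55152640 to 55168759, plus strand), the main receptor of hepatocytes, was measured at 30.9, 39.9, 37.4, 37.4 and 28.5 CPM in Chow and at 34.8, 29.3, 25.5, 27.7 and 25.8 CPM in TM5614, in order of replicate. Of the treated libraries 3 lay below every Chow library, while the remaining 2 lay inside the Chow range. On the log2 scale the difference was -0.29 (SE 0.13, edgeR adjusted p = 0.246, unadjusted p = 0.0502), and the interval of the fold was 0.673 to 1.00. It was negative under every setting tried, from -0.36 to -0.12, and past the threshold under none of them.

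Fgfr1 (chromosome 8, 25513654 to 25575718, plus strand), the principal receptor of FGF21 in adipose tissue and brain, had 4.37, 5.79, 8.46, 5.86 and 6.99 CPM in Chow and 9.19, 8.95, 5.27, 7.77 and 10.1 CPM in TM5614, in order of replicate. Here 3 treated libraries lay above every Chow library. The difference was 0.38 on the log2 scale (SE 0.21, edgeR adjusted p = 0.332), with an interval of the fold from 0.947 to 1.80, and the libraries held 36 to 98 counts of this gene.

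Fgfr2 (chromosome 7, 130162451 to 133123350, minus strand), whose product answers mainly to paracrine ligands in epithelia, had 30.0, 22.1, 37.8, 32.0 and 39.5 CPM in Chow and 31.2, 38.4, 32.0, 48.2 and 28.1 CPM in TM5614. The promoter entry searched for Fgfr2 lay at 130266759, inside this span and not at 133123350, so the sources differ on its start. Fgfr3 (chromosome 5, 33721674 to 33737068, plus strand), best known for restraining bone growth, had 14.3, 15.6, 19.3, 14.3 and 13.2 CPM in Chow and 15.5, 13.6, 8.71, 13.3 and 14.3 CPM in TM5614. The groups overlapped for both. On the log2 scale Fgfr2 differed by 0.14 (SE 0.18, edgeR adjusted p = 0.685) and Fgfr3 by -0.23 (SE 0.17, edgeR adjusted p = 0.448). Their folds had intervals of 0.835 to 1.46 and 0.661 to 1.10. In all, 1 of the 7 members passed the threshold, where 4.50% of all tested genes did, and 0 of the other 6 had an unadjusted p under 0.05.

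**Figure D2:**
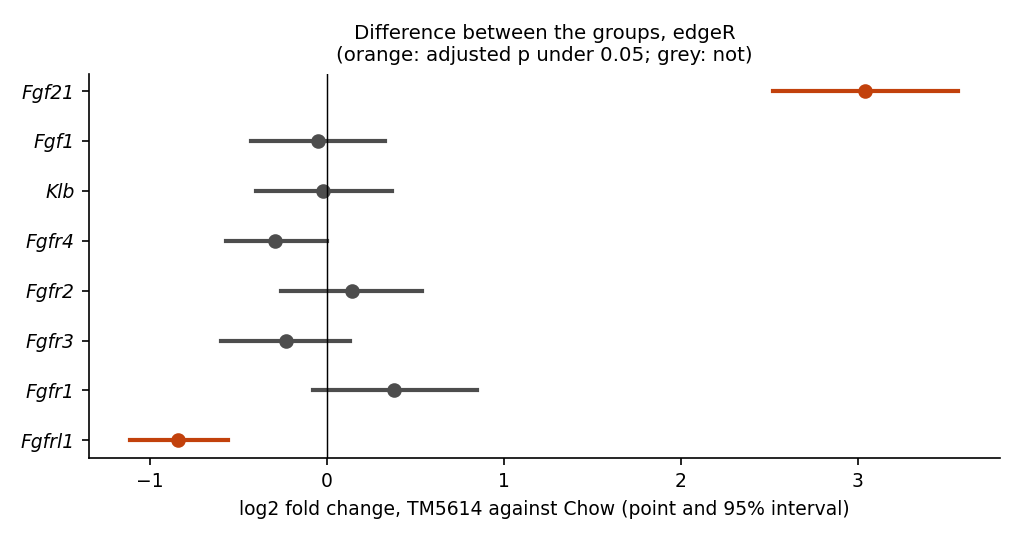
Log2 fold change of TM5614 against Chow with its 95% interval from edgeR, for the 7 members and Fgfrl1. The interval of Fgf21 (2.52 to 3.57) lies far to the right of those of the other members, all of which reach or include 0, and that of Fgfrl1 (-1.11 to -0.56) lies below 0.

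Levels of different genes were compared per length, by FPKM within a library. In Chow the order was Fgf1 (34.2 ± 8.50), Klb (13.9 ± 3.39), Fgfr4 (10.9 ± 1.52), Fgfr2 (5.96 ± 1.28), Fgfr3 (3.44 ± 0.544), Fgf21 (1.33 ± 0.517) and Fgfr1 (1.24 ± 0.301), as mean FPKM ± SD over 5 livers. The ranges of Klb and Fgfr4, of Fgfr2 and Fgfr3, and of Fgf21 and Fgfr1 overlapped between livers. Within a library Fgfr2 lay above Fgfr3 in all 5 Chow livers. Klb lay above Fgfr4, and Fgf21 above Fgfr1, in 4 of them. In TM5614 Fgf21 moved up, at 11.4 ± 1.85 FPKM, between Klb (13.7 ± 1.58) and Fgfr4 (8.96 ± 1.18), and its range overlapped both. The ranges of Fgfr4 and Fgfr2 and of Fgfr3 and Fgfr1 overlapped there as well. Within a library Fgfr4 lay above Fgfr2 in 4 of the 5 treated livers, and Fgfr3 above Fgfr1 in all 5. The order of the other 6 genes was the same in both groups.

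The make-up of the receptor pool was examined as the share of each gene in the summed FPKM of Fgfr1 to Fgfr4, a quantity that does not depend on the scaling of libraries. Fgfr4 made up 50.3, 59.0, 47.5, 53.3 and 43.5% in Chow replicates 1 to 5 and 49.7, 43.6, 47.3, 39.3 and 43.8% in TM5614 replicates 1 to 5. Its mean share was 50.7 ± 5.86% in Chow and 44.7 ± 3.97% in TM5614, a difference of -5.98 percentage points that did not pass (exact two-sided permutation test, p = 0.0952, adjusted p = 0.238 over the 5 receptor quantities tested). Without Chow replicate 2 the difference was -3.92 points (exact permutation p = 0.198), without Chow replicate 5 it was -7.78 points (exact permutation p = 0.0317), and without both second replicates it was -3.63 points (exact permutation p = 0.286).

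Fgfr1, the least abundant receptor, went from 5.69 ± 0.991% to 8.06 ± 1.74% of the pool (exact two-sided permutation test, p = 0.0317, adjusted p = 0.159). The lowest value the 252 possible splits allow is 0.00794. Shares of Fgfr2 (27.7 ± 5.79% and 32.7 ± 5.63%, exact permutation p = 0.270) and Fgfr3 (15.9 ± 1.40% and 14.5 ± 2.21%, exact permutation p = 0.262) had adjusted p = 0.337 each. Klb amounted to 0.650 ± 0.186 of the summed receptor FPKM in Chow and 0.692 ± 0.127 in TM5614 (exact permutation p = 0.698). None of the 5 quantities passed after adjustment.

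**Figure D3:**
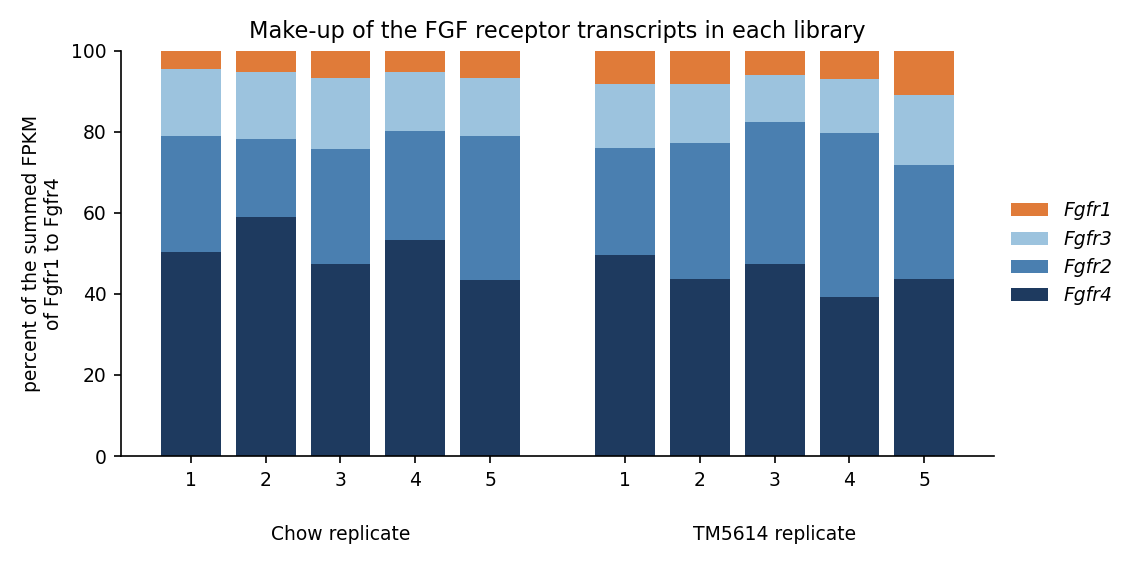
Percent of the summed FPKM of the 4 FGF receptor genes contributed by each, 1 bar per library, Chow replicates 1 to 5 on the left and TM5614 replicates 1 to 5 on the right. Fgfr4 is the largest share in every bar, at 39.3 to 59.0%, except in TM5614 replicate 4, where Fgfr2 holds 40.3%, and Fgfr1 is the smallest, at 4.44 to 10.7%.

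Fgfrl1, beside the members, fell. This gene encodes a receptor-like protein that binds FGF ligands but lacks the tyrosine kinase domain and is often described as a decoy (chromosome 5, 108692382 to 108706924, plus strand). It was the only 1 of 9 further co-receptors and FGF-binding proteins with enough counts to test. Its level was 51.8, 56.2, 44.0, 45.9 and 39.7 CPM in Chow replicates 1 to 5 and 27.6, 29.5, 21.8, 28.1 and 26.0 CPM in TM5614 replicates 1 to 5. Every treated library lay below every Chow library, as was the case in either direction for 8.93% of all tested genes. Fgfrl1 fell by 0.84 on the log2 scale (SE 0.13, edgeR adjusted p = 0.00302), to 0.559 times the Chow level with an interval of 0.462 to 0.677. The fall kept its direction under all settings, at -0.90 to -0.65, but a test against a 1.5-fold change did not call it (edgeR adjusted p = 0.491). Per length, Fgfrl1 was the second most abundant of the genes described so far in Chow, at 17.7 ± 2.45 FPKM, and had 9.86 ± 1.06 FPKM in TM5614 (SD, n = 5).

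The machinery downstream of the receptors was followed through lists of genes. Of 18 tested genes for heparan sulphate proteoglycans and their enzymes, which carry paracrine FGFs to their receptors, none passed the threshold in edgeR, 3 had an unadjusted p under 0.05 and the median log2 fold change was -0.01. Of 22 adaptors and relay kinases from Frs2 to Rps6ka3 none passed, 3 had an unadjusted p under 0.05 and the median was -0.01. Of 14 feedback inhibitors and immediate targets of ERK none passed, 1 had an unadjusted p under 0.05 and the median was 0.07. DESeq2 called 1 gene of the first list and 0 of the other lists, and limma-voom called 1, 3 and 1. Among all tested genes edgeR called 499, DESeq2 900 and limma-voom 1386. At the edgeR background of 4.50%, lists of this length with no called gene do not stand apart from other genes.

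Of these genes 3 were picked for description after their values were seen. Spry4, an inhibitor of RAS activation, had a log2 fold change of -0.69 (edgeR adjusted p = 0.156). Dusp6, the phosphatase that dephosphorylates ERK in the cytoplasm, was measured at 61.8 ± 17.8 CPM in Chow and 65.2 ± 23.9 CPM in TM5614 (SD, n = 5), with a log2 fold change of 0.08 (edgeR adjusted p = 0.880). Egr1, an immediate early gene, varied greatly between livers of a group, at 97.6 ± 71.9 CPM and 79.0 ± 46.7 CPM. Without both second replicates 1 gene of the heparan sulphate list, 3 of the relay list and 1 of the feedback list passed the threshold. Without Chow replicate 2 alone 1 gene of each list did. Among all tested genes 1230 and 1031 passed under these settings.

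The 4 bile acid genes listed for FGF15 did not pass either, and control of each of them by FGF15 was not tested. Cyp7a1, the rate-limiting enzyme of bile acid synthesis, was at 306 ± 94.1 CPM in Chow and 132 ± 87.4 CPM in TM5614 (SD, n = 5), a difference of -1.21 on the log2 scale (SE 0.40, edgeR adjusted p = 0.119). Cyp8b1, which sets the share of cholic acid, had 0.39 (edgeR adjusted p = 0.234), Nr0b2, the repressor SHP, had -0.12 (edgeR adjusted p = 0.793), and Slc10a1, the bile acid importer of hepatocytes, had -0.50 (edgeR adjusted p = 0.0949). Of the 4, 3 had an unadjusted p under 0.05. DESeq2 and limma-voom each called 2, where they called 900 and 1386 of all tested genes. Without both second replicates 1 passed in each direction, where 1230 of all tested genes passed. The count in this list was 1 without Chow replicate 2 (1031 called in all), without TM5614 replicate 5 (342), and after correction for GC content and gene length (710). Under that correction Cyp7a1 passed, at -1.48 on the log2 scale (edgeR adjusted p = 0.0446).

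The genes known to control Fgf21, and the other targets of those controllers, were described next. Of 23 tested transcription factors reported to act on Fgf21, 1 passed the threshold, where 4.50% of all tested genes did. This was Rxra, the partner of PPAR-alpha, which fell by 0.38 on the log2 scale (SE 0.09, edgeR adjusted p = 0.0417). The count depended on single libraries and on the tool. It was 0 when 1 of 8 single libraries was left out, where 235 to 415 of all tested genes were called. It was 3 without Chow replicate 2 (1031 called in all) or without both second replicates (1230), 2 with DESeq2 (900) and 4 with limma-voom (1386). After correction for GC content and gene length Rxra did not pass (edgeR adjusted p = 0.0707). Ppara was at 564 ± 79.4 CPM in Chow and 553 ± 86.4 CPM in TM5614 (SD, n = 5), a difference of -0.03 on the log2 scale (edgeR adjusted p = 0.922). Atf4 had a log2 fold change of -0.26 (edgeR adjusted p = 0.370) and Mlxipl, which encodes ChREBP, -0.28 (edgeR adjusted p = 0.307). Nfil3, a repressor of D-box genes, had the highest value of the list, 1.06 (SE 0.29, edgeR adjusted p = 0.0610), and passed after the GC and length correction (1.19, edgeR adjusted p = 0.0195).

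Targets of PPAR-alpha included many genes that rose. Of 27 tested, 11 rose and 1 fell, against a background of 1.73% and 2.77%, and the median log2 fold change was 0.49. Like the other lists, this one was chosen with earlier results of these data known, so the counts only describe it. The enzymes Acot1 (2.04, SE 0.20, edgeR adjusted p = 3.40e-04), a cytosolic acyl-CoA thioesterase, and Ehhadh (2.31, SE 0.28, edgeR adjusted p = 8.89e-04), of peroxisomal beta-oxidation, were the most certain. The omega-hydroxylases Cyp4a10 (1.40, SE 0.19) and Cyp4a14 (1.25, SE 0.19), the lipid droplet protein Plin2 (1.07, SE 0.17) and Acot2 (1.30, SE 0.22) also rose, with edgeR adjusted p-values of 0.00167, 0.00302, 0.00411 and 0.00652. Acot3 fell by 1.00 (SE 0.24, edgeR adjusted p = 0.0349).

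Single values in the Acot and Cyp4a families are uncertain, since near-identical copies can share reads. The classical target Cpt1a, which admits fatty acids to mitochondria, did not pass (0.63, edgeR adjusted p = 0.123). Pdk4 is also a muscle gene, and its highest level, 144 CPM, was in TM5614 replicate 2, the library with the most muscle markers. Whether muscle RNA contributed to that value was not tested. Without that library the log2 fold change of Pdk4 was 2.51. Over all libraries Pdk4 was at most 6.44 CPM in Chow and at least 12.6 CPM in TM5614. The number called in this list was 7 without TM5614 replicate 3 or 4, where 235 and 259 of all tested genes were called. It was 21 without both second replicates, where 1230 were called, against 499 in the main fit. These genes and Fgf21 were measured in the same 10 livers, and whether either depends on the other was not tested.

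Of 17 tested genes of the integrated stress response, the ATF4 branch, none rose and 1 fell, against 1.73% and 2.77% of all genes tested. The list median was 0.09. The gene that fell was Shmt2, the mitochondrial serine hydroxymethyltransferase (fell by 0.53, SE 0.11, edgeR adjusted p = 0.0196, and 0.0531 after GC and length correction). Atf5 had 0.59 (edgeR adjusted p = 0.239) and, after the GC and length correction, 0.94 (edgeR adjusted p = 0.00115), so that 1 gene of the list rose under that setting. Asns, the classical ATF4 target, was at 14.6 ± 15.6 CPM in Chow and 15.2 ± 10.1 CPM in TM5614 (SD, n = 5), with a log2 fold change of 0.09 and an interval of -1.43 to 1.62. Trib3 had -0.42 (edgeR adjusted p = 0.411) and Ddit3, which encodes CHOP, had -0.08 (edgeR adjusted p = 0.855). The Shmt2 call was lost without Chow replicate 3 or without TM5614 replicate 2, 3 or 4, and 2 genes of the list passed without Chow replicate 2. Without both second replicates 1 gene rose and 1 fell. All tested genes gave 1031 calls without Chow replicate 2 and 1230 without both second replicates.

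Of 16 tested ChREBP targets 1 rose and 2 fell, against 1.73% and 2.77% of all genes tested, and 13 did not pass, with a median of 0.04. G6pc, the last step of glucose output, rose by 1.60 (SE 0.22, edgeR adjusted p = 0.00185), whereas Fasn, fatty acid synthase, fell by 1.37 (SE 0.22, edgeR adjusted p = 0.00391) and Khk, ketohexokinase, fell by 1.14 (SE 0.28, edgeR adjusted p = 0.0404). The fall of Khk was 0.73 without Chow replicate 2. The list held 5 called genes without that library (1031 called among all tested genes) and without both second replicates (1230).

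Among 24 other genes for secreted products of the liver, 2 rose and 1 fell, against 1.73% and 2.77% of all genes tested, with a median of -0.23. Hamp, the iron hormone hepcidin, rose by 1.35 (SE 0.29, edgeR adjusted p = 0.0231), Fst, the activin antagonist follistatin, rose by 1.44 (SE 0.36, edgeR adjusted p = 0.0425), and Lect2, a hepatokine, fell by 0.83 (SE 0.19, edgeR adjusted p = 0.0317). Hamp has a near-identical copy, Hamp2 (-1.38, edgeR adjusted p = 0.102), so the values of this pair are uncertain. The count of 3 was sensitive to single livers. It came to 0 without Chow replicate 1, Chow replicate 3 or TM5614 replicate 3, where 415, 293 and 235 of all tested genes were called. It was 6 without Chow replicate 2 (1031 called in all) and 7 without both second replicates (1230). Gdf15, the other stress hormone of liver, had a log2 fold change of 0.38 with an interval of -0.82 to 1.57. The fold of Fgf21 was larger than that of any tested gene in this list.

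**Figure D4:**
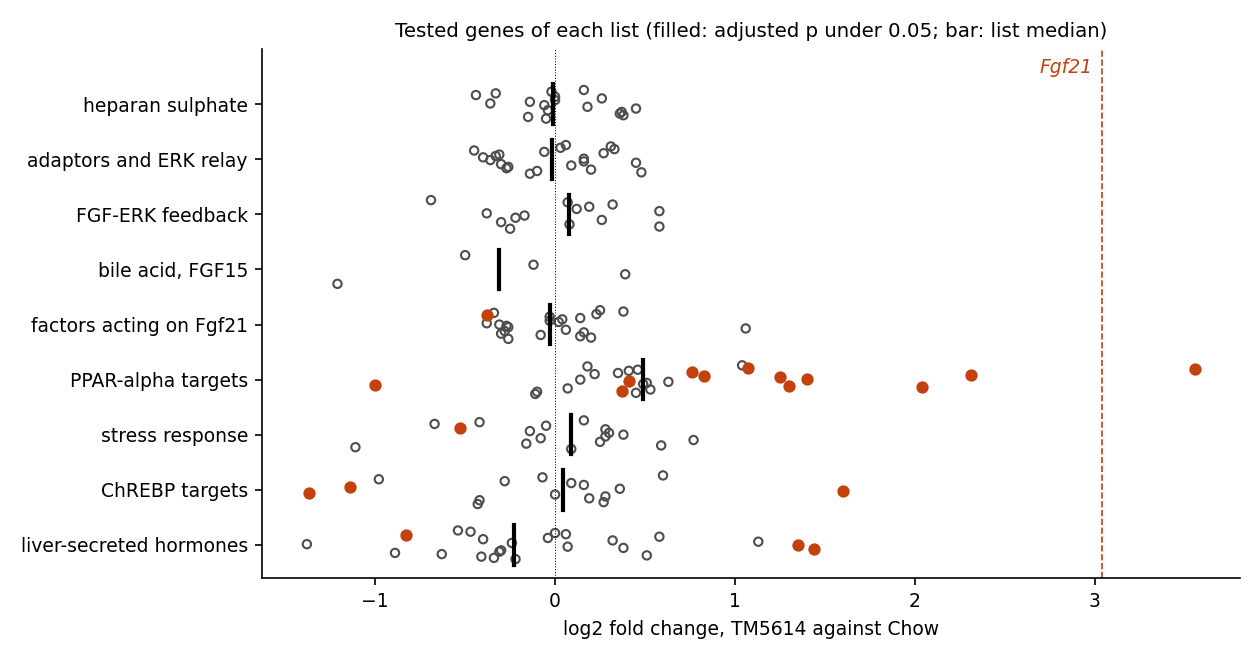
Log2 fold change of TM5614 against Chow for each tested gene of 9 lists; filled points passed the adjusted threshold, open points did not, black bars are list medians and the dashed line is Fgf21 at 3.04. The PPAR-alpha targets have a median of 0.49 and 11 filled points to the right of 0, while the 4 lists at the top have none.

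The promoter elements were also set against the other genes that carry them. Of the 10 tested genes with the C/EBP-ATF element within their promoter window 1 rose, Fgf21 itself, and their median log2 fold change was -0.14. Of 875 tested genes with the E-box, 17 rose (1.94%) and 34 fell. Of 692 with the TATA box, 19 rose (2.75%) and 27 fell. Fgf21, whose promoter supplied the motifs, is counted among the genes that rose in each set. Over all genes tested 1.73% rose and 2.77% fell. That background covers all 11092 tested genes, whereas only the 8549 with a promoter entry could carry a motif.

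Genes next to Fgf21 on chromosome 7 did not rise with it. Of 14 protein-coding neighbours with a start within 100 kb, 5 had enough counts to test. Bcat2 (-0.30, edgeR adjusted p = 0.478), a branched-chain aminotransferase, Rasip1 (-0.30, edgeR adjusted p = 0.660), an endothelial gene, Rpl18 (-0.31, edgeR adjusted p = 0.495), a ribosomal protein, and Ppp1r15a (-0.04, edgeR adjusted p = 0.907), the stress-response phosphatase subunit GADD34, did not pass. The nearest, Fut1, with its start 1.80 kb away, had at most 5 counts in any library. No annotated gene on either strand overlaps Fgf21.

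The fifth tested neighbour, Dbp, fell. This gene encodes a PAR-bZIP activator of D-box genes whose hepatic transcript cycles over the day, and its start lies 89.6 kb from that of Fgf21. It was measured at 131, 277, 173, 170 and 143 CPM in Chow replicates 1 to 5 and at 57.3, 33.1, 25.3, 44.9 and 65.0 CPM in TM5614 replicates 1 to 5. The groups did not overlap, and Dbp fell by 1.99 on the log2 scale (SE 0.27, edgeR adjusted p = 0.00179). The labels give no time of day for the collection of livers, and its part in the values of Dbp or Fgf21 was not tested.

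**Figure D5:**
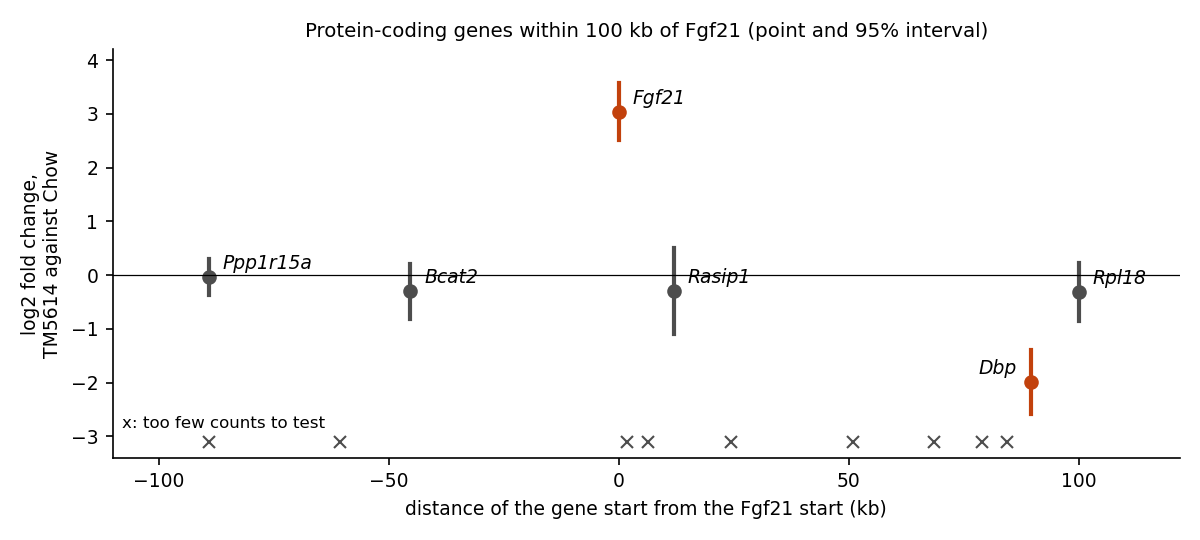
Log2 fold change with 95% interval of the tested protein-coding genes against the distance of their start from that of Fgf21 in kb; crosses mark neighbours with too few counts to test. Fgf21 stands at 3.04, Dbp at -1.99, and the other 4 tested neighbours between -0.31 and -0.04.

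The genes whose log2 CPM followed Fgf21 most closely over the 10 libraries, among 8597 genes with at least 50 counts on average, were Cidec (Pearson r = 0.969), Atoh8 (0.959), Enc1 (0.959), Ywhaz (0.954), Acot1 (0.952), Tmed4 (0.951), Bace1 (0.949) and Fbxo45 (0.948). These correlations are a description, since Fgf21 falls into separate clusters by group and any gene with a steady difference between the groups scores high. Cidec, a lipid droplet protein, rose from 4.99 ± 1.30 to 27.1 ± 8.14 CPM (SD, n = 5, log2 fold change 2.43, SE 0.24, edgeR adjusted p = 3.40e-04). After each group mean was taken out the closest were Fbxo45 (0.934), Vps53 (0.904), Serpina12 (0.893), Tmem165 (0.870) and Hsd3b5 (0.868), so Fbxo45 was the 1 gene in both sets. Among the members the correlation over 10 libraries ran from -0.652 for Fgfr4 to 0.558 for Fgfr1, and with group means out it was highest for Fgf1, at 0.521. The Chow values of Fgf21 were lowest in replicate 4, at 3 counts and 0.475 CPM, against 1.21 to 1.77 CPM in the others. Fgf1 was also lowest in that library, at 99.7 CPM. How far the correlations with group means out rest on that library was not tested.

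Markers of other cell types were compared between the groups as well. Of 10 Kupffer cell markers all had a negative log2 fold change, with a median of -0.43, and none passed the threshold in edgeR or had an unadjusted p under 0.05. Their summed level was 83.4 to 264 CPM in Chow and 83.2 to 178 CPM in TM5614. The summed adipocyte markers ran from 12.2 to 34.8 CPM in Chow and from 30.0 to 107 CPM in TM5614, and 1 of the 4 tested passed, Cidec. Without Cidec, which fatty hepatocytes also express, the sums were 7.40 to 27.7 CPM in Chow and 8.68 to 86.4 CPM in TM5614, and Adipoq, which encodes adiponectin and defines adipocytes, was at most 7.40 CPM. Fgf21 was at 9.62 to 13.9 CPM in the 4 treated libraries whose sums without Cidec were 8.68 to 13.4 CPM, inside the Chow range. The summed skeletal muscle markers lay above every Chow library in each treated library, as given above. What RNA of other tissues contributed to the level of Fgf21 was not tested.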

How the data were processed

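RNA-seq was performed on poly(A) RNA from 10 livers, and the labels gave the groups and replicate numbers. Per the study's methods, single-end reads were aligned with STAR to mm10 and compared with DESeq2; HOMER is named in the submitters' processing notes without a role. The annotation, and whether counting was stranded, are not given in the sources used here. The authors deposited raw counts per gene, which were used for tests, and FPKM values, which were used only to compare genes within a library. Their regularised log2 values and their own table of fold changes and p-values were not used.

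The members and gene lists were chosen with earlier results of these data known. Genes passing filterByExpr were tested with edgeR 4.0.16 in R 4.3.3 (TMM factors, glmQLFit and glmQLFTest, group only, two-sided), with Benjamini-Hochberg adjustment over 11092 genes and a threshold of 0.05, after a test on simulated data. The study used DESeq2, which was run as an alternative (1.42.0), as was limma-voom (3.58.1). Shares were compared with exact permutation tests over 252 splits. Named genes were the 7 members, at most 6 called genes per list by lowest p, neighbours within 100 kb, and the 8 and 5 genes most like Fgf21 in log2 CPM (prior count 2). List genes that did not pass, and Pdk4 and Acot3 (beyond the 6 of their list), were chosen after their values were seen. Other alternatives covered scaling, filters, dispersion, GC content and length, thresholds, a replicate block and each library left out; leaving out both second replicates was added after seeing the data. Counts differed beyond sampling noise in all 20 pairs of libraries within a group (chi-square over degrees of freedom at least 7.50). Coordinates came from GENCODE on GRCm38 by symbol, and promoters from RefSeq, with entries for 5 of the 7 members. Total counts of 6398335 to 10874955 set the precision. Replicates are separate mice. Some genes of the lists are counted but not reported by name here.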

Additional observations from a re-analysis of the deposited data

Results flagged for a closer look

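Of 54 groups of 5 libraries examined over 27 measures (among them the members and the summed cell type markers), 5 held a library with a gap to the others above Dixon's 95% limit. Chance gives about 1 in 20 groups, or 2.70 of 54. Klb in TM5614 replicate 2 was 38.5 CPM, against 49.1 to 51.0 CPM in the other treated libraries. The same library held 3 further gaps: the summed markers were 4383 CPM for skeletal muscle against 1.29 to 78.8 CPM, 107 CPM for adipocytes against 30.0 to 50.9 CPM, and 569 CPM for stellate cells against 274 to 359 CPM. In Chow replicate 2 the summed exocrine pancreas markers were 16.5 CPM against 7.40 to 9.82 CPM. Without TM5614 replicate 2 the log2 fold change was 3.07 for Fgf21 and 0.05 for Klb, and without Chow replicate 2 it was 3.10 for Fgf21 and -0.16 for Klb.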

How the results depend on the processing

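The rise of Fgf21 kept its direction and its call under each of the 22 alternatives that gave a value, at 2.87 to 3.31 on the log2 scale (adjusted p 9.31e-27 to 0.00113). Under a filter of at least 10 counts in every library it was not tested, because of its low Chow counts, and 0 members were called. The number of genes changed was 900 with DESeq2, 1386 with limma-voom, 78 against a 1.5-fold change, 184 at an adjusted p of 0.01, 1230 without both second replicates, and 235 to 1031 with 1 library left out (it moved by over 1.5 times on leaving out Chow replicate 2, to 1031, Chow replicate 3, to 293, or TM5614 replicate 1, 3 or 4, to 331, 235 or 259). Estimates near 0 changed sign: Klb was 0.03 with library totals alone and -0.16 to 0.06 with 1 library left out, Fgf1 was -0.14 to 0.06 with 1 library left out, and Fgfr2 was -0.02 with limma-voom and -0.01 without both second replicates. The Fgfr4 share differed by -5.05 points among Fgfr4 and Fgfr1 only (exact permutation p = 0.0317) and by -7.78 to -3.92 points with 1 library left out, and Klb per receptor by -0.0251 to 0.0995. Fgfrl1 lost its call against a 1.5-fold change (-0.84). The cause of these changes was not tested, apart from stricter thresholds calling fewer genes by construction. GC content and length were known for 96.7% of tested genes.

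With the replicate number as a block, 555 genes were called, Fgf21 had 3.07 and Klb 0.02, and no member's call changed. Deviations of same-numbered libraries correlated at 0.03 to 0.32, over 0.1 in 3 of 5 pairs, and 1 of 5 Chow and 2 of 5 TM5614 libraries correlated best with their own number, so the numbers were not taken as pairs. The Fgfr4 share had p = 0.188 in the exact sign-flip permutation test. At 3 to 17 counts per Chow library, depth limits the fold of Fgf21.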
